A study of Mus musculus with 8 samples.

Results

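Branched-chain amino acid breakdown was followed through 10 genes of mouse liver, found by symbol in the deposited count table of 24317 genes: Bcat2, Bckdha, Bckdhb, Dbt, Bckdk, Ppm1k, Ivd, Mccc1, Mccc2 and Hibadh. All 10 were in the table, and all 10 were among the 13341 genes with enough reads to be tested. Livers came from C57BL/6 mice in 2 groups. The high-salt group ate chow with 6% NaCl for 6 weeks (4 libraries), and the other group ate normal chow (4 libraries). The labels give neither age nor sex, and whether every library stems from its own animal is not said, so the tests weigh differences against the spread of these libraries, which may be partly technical. Groups follow the diet label of each sample. The high-salt titles begin with N, a letter that could be taken for normal, and every direction below rests on the diet label.

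Leucine, isoleucine and valine share the first steps of their breakdown in mitochondria. An aminotransferase removes the amino group, and the branched-chain ketoacid dehydrogenase complex then decarboxylates the product in a step that cannot be reversed. A kinase switches this complex off by phosphorylating its E1 alpha subunit, and a phosphatase switches it on again. After it the 3 amino acids part into their own arms, which end in ketone bodies, acetyl-CoA or propionyl-CoA. Liver is known for high dehydrogenase activity and for little of the first aminotransferase, which works mainly in muscle and other tissues.

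In the high-salt livers Dbt, the E2 core subunit of the dehydrogenase complex, fell, and it was the 1 called gene of the 10 (1 lower, 0 higher). Calls are those of edgeR's quasi-likelihood test at an adjusted p below 0.05, with Benjamini-Hochberg adjustment over all 13341 genes. By that rule 0.150% of all tested genes were lower and 0.150% were higher. Both E1 subunit genes, the kinase gene and the phosphatase gene were not called. Ivd, Mccc1 and Mccc2, early genes of the leucine arm, lay lower in every high-salt library than in any normal-chow library, by 0.18 to 0.27 on the log2 scale, and none of them was called. Dbt, and Hibadh of the valine arm, also lay apart in this way, as did 3.37% of all tested genes. Over the 10 genes the median log2 fold change was -0.145, with 6 genes below 0. The median over all tested genes was 0.00596, and 48.7% of them were below 0. The 10 genes were chosen with earlier results of these data known, so the shares over all genes do not test them as a group.

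Levels are given in CPM, read counts divided by the scaled library size, and they can be compared between libraries for one gene. In 5 of the 10 genes (Dbt, Ivd, Mccc1, Mccc2 and Hibadh) every high-salt library lay below every normal-chow library in CPM, as was the case for 3.37% of the tested genes. In 0 of the 10 did they all lie above, against 2.98% of the tested genes. At an unadjusted p below 0.05 there were 4 lower genes (Dbt, Ivd, Mccc1 and Mccc2) and 0 higher ones, against 5.60% and 5.33% of all tested genes. Because the 10 genes were chosen with earlier results known, these shares are no test of the genes as a group.

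**Figure D1:**
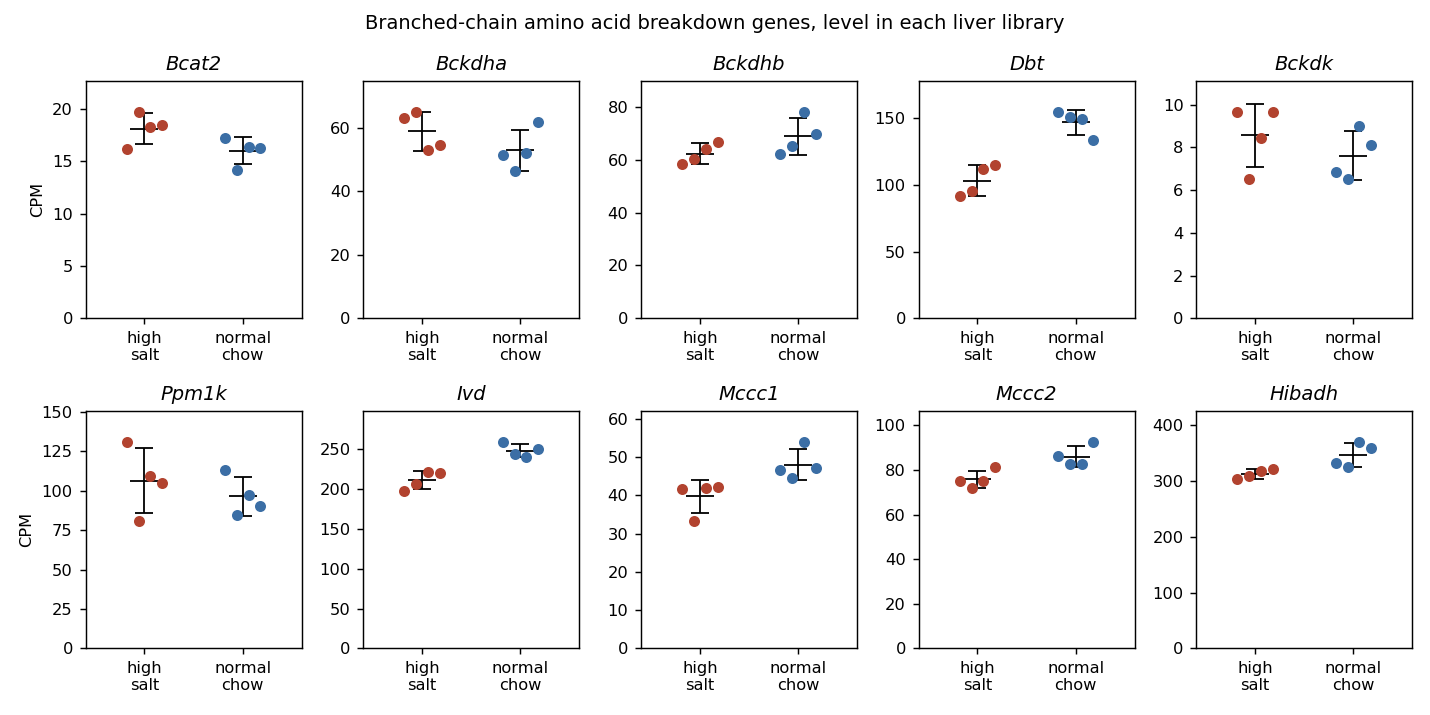
CPM of the 10 genes in each of the 8 libraries (vertical axes in CPM, starting at 0), with 4 high-salt libraries left of 4 normal-chow libraries. Points are libraries in replicate order and bars are the mean ± SD; in Dbt the high-salt points lie between 91.3 and 115 CPM and the normal-chow points between 133 and 155 CPM.

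Total counts per library ran from 16620368 to 18639685, with 17240000 ± 516000 in high salt and 17660000 ± 689000 in normal chow (SD, n = 4 each; exact permutation p = 0.400, two-sided, where the smallest possible p is 0.0286). The liver label was checked against 7 hepatocyte markers, whose summed level was 131000 to 138000 CPM in high salt and 128000 to 146000 CPM in normal chow, most of it from Alb. None of the 7 was called. Cps1, an enzyme of the urea cycle, was at 3880 to 5930 CPM in high salt and 6560 to 7550 CPM in normal chow. Tdo2, which breaks down tryptophan, was at 1380 to 1950 CPM in high salt and 1910 to 2670 CPM in normal chow. Apoa1 and Fgb leaned the other way. Apoa1 was at 5950 to 8430 CPM in high salt and 4230 to 6820 CPM in normal chow. Fgb was at 5190 to 5820 CPM in high salt and 3680 to 5770 CPM in normal chow. Of the 7, only Cps1 had ranges that did not overlap between the diets. The part of these markers in the results below was not tested. Markers of tissues rich in Bcat2 were near 0. The 5 muscle markers summed to 0.441 to 0.948 CPM in high salt and to 0.718 to 4.57 CPM in normal chow. The 4 adipose markers summed to at most 6.16 CPM in high salt and 5.27 CPM in normal chow. The 5 acinar markers of pancreas summed to at most 2.02 CPM in high salt and 0.994 CPM in normal chow. The 4 B and plasma cell markers reached 189 CPM in high salt 2, against at most 65.4 CPM in any other library. In whole liver, fewer cells of a type and less RNA per cell cannot be told apart.

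The first step is run by Bcat2, the mitochondrial branched-chain aminotransferase. Bcat2 (chromosome 7, 45570153 to 45589711, GRCm38) was at 16.1, 19.7, 18.2 and 18.4 CPM in high salt 1 to 4, against 17.2, 14.2, 16.4 and 16.3 CPM in normal chow 1 to 4. The groups overlapped through high salt 1, and the log2 fold change of Bcat2 was 0.18 (95% confidence interval -0.04 to 0.39, adjusted p = 0.559). Of its 3900 exonic bases 622 lie under exons of an antisense transcript, 0610005C13Rik, which was at 42.6 to 50.7 CPM in high salt and 40.4 to 50.1 CPM in normal chow. The library kit does not mark strand and how reads on shared bases were counted is not stated, so reads of the pair may be mixed. Bcat1, the cytosolic aminotransferase, had at most 2 counts in any library and was not tested.

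The dehydrogenase complex is built on a core of E2 subunits, to which E1 and E3 bind. Dbt encodes E2, the dihydrolipoamide acyltransferase that carries the acyl group to coenzyme A. Dbt (chromosome 3, 116513070 to 116549981) was at 91.3, 95.1, 112 and 115 CPM in high salt 1 to 4, against 155, 151, 149 and 133 CPM in normal chow 1 to 4. The highest high-salt library lay below the lowest normal-chow library. Dbt averaged 103 ± 11.7 CPM in high salt and 147 ± 9.28 CPM in normal chow (SD, n = 4 each), a log2 fold change of -0.51 ± 0.09 (SE, 95% confidence interval -0.71 to -0.31, adjusted p = 0.0415 by edgeR), or 0.702 times the normal-chow level. Its p-value was at rank 27 among the 13341 tested genes.

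The Dbt call depended on single libraries and on the scaling, while its direction did not change. Among the 8 fits with 1 library left out, 2 called Dbt. Its adjusted p was 0.115 without high salt 1, 0.0915 without high salt 2, 0.0567 without high salt 3, 0.0501 without normal chow 1, 0.107 without normal chow 2 and 0.126 without normal chow 3, and its log2 fold change ran from -0.57 to -0.46 over all 8 fits. With total-count scaling the adjusted p was 0.0698 and with upper-quartile factors 0.0530, and limma-voom gave 0.0717. limma-voom called 0 of the 10 genes, against 0.0600% of all tested genes lower and 0.0525% higher. DESeq2 gave 9.03e-05, as does the authors' deposited table. All 24317 log2 fold changes of that table lay within 0.001 of those from DESeq2 with its defaults, so these 2 results are not independent of each other.

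**Figure D2:**
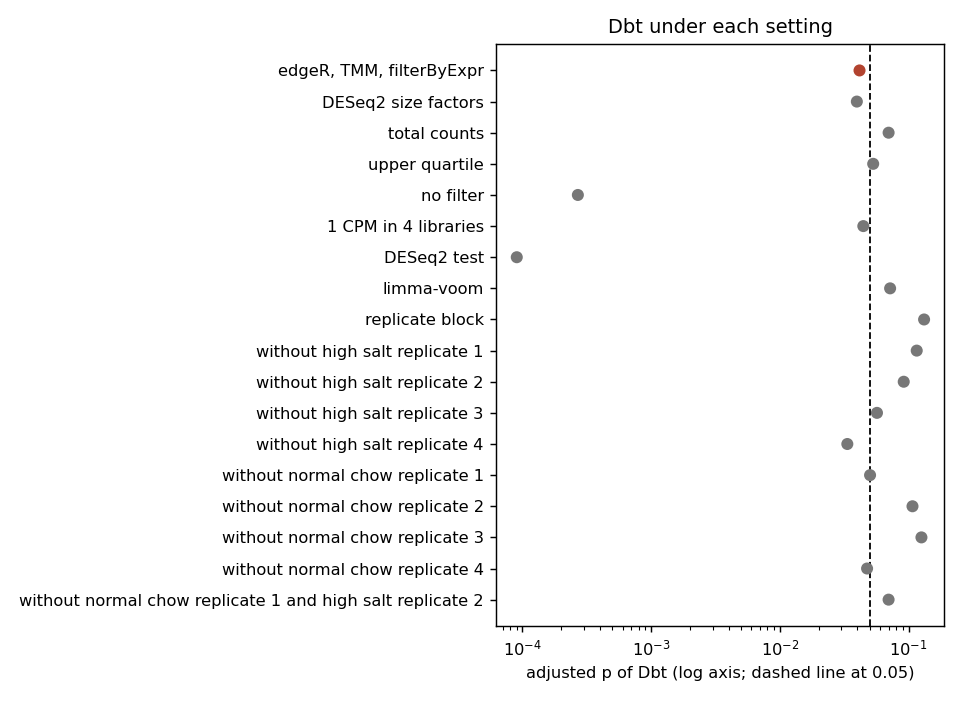
Adjusted p of Dbt (horizontal log axis, dashed line at 0.05) under the edgeR fit reported here (red) and 17 other settings (grey), one per line. The reported value is 0.0415 and the others run from 9.03e-05 to 0.132, on both sides of the line.

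Bckdha and Bckdhb encode the alpha and beta chains of E1, the decarboxylase of the complex. Bckdha (chromosome 7, 25629946 to 25658981) was at 62.9, 64.9, 53.0 and 54.4 CPM in high salt 1 to 4, against 51.5, 46.4, 52.0 and 61.9 CPM in normal chow 1 to 4. High salt 1 and 2 were the highest of the 8 libraries, normal chow 4 came next, and the groups overlapped. Bckdha had a log2 fold change of 0.15 (95% confidence interval -0.06 to 0.37, adjusted p = 0.638). Of its 1899 exonic bases 1171 lie opposite exons of B3gnt8, a gene at only 0.889 to 2.04 CPM in high salt and 1.10 to 1.76 CPM in normal chow, and reads from the shared stretch may have been dropped or assigned to either gene.

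Bckdhb (chromosome 9, 83925145 to 84124240) was at 58.3, 60.2, 64.2 and 66.8 CPM in high salt 1 to 4, against 62.1, 65.3, 78.1 and 69.9 CPM in normal chow 1 to 4. The groups overlapped through high salt 3 and 4 and normal chow 1 and 2. Bckdhb had a log2 fold change of -0.14 (95% confidence interval -0.33 to 0.04, adjusted p = 0.591). Dld, the E3 subunit that this complex shares with other mitochondrial dehydrogenases, was at 197 ± 11.3 CPM in high salt and 204 ± 6.59 CPM in normal chow (log2 fold change -0.05, adjusted p = 0.869).

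Within each library the balance of E2 to E1 messages can be read without any scaling between libraries. On the scale of reads per exonic base, the ratio of Dbt to Bckdhb was 0.844, 0.852, 0.938 and 0.927 in high salt 1 to 4, against 1.34, 1.24, 1.03 and 1.03 in normal chow 1 to 4. The groups did not overlap. Which side of 1 a ratio falls on depends on the lengths used: with principal transcripts, the ratio of Dbt to Bckdhb was 0.698 to 0.776 in high salt and 0.851 to 1.11 in normal chow. The ratio of Dbt to Bckdha was 0.822, 0.830, 1.20 and 1.20 in high salt 1 to 4, against 1.70, 1.84, 1.63 and 1.22 in normal chow 1 to 4. These groups also did not overlap, with a narrow gap between high salt 3 and 4 and normal chow 4. The Bckdha length, 1899 bases by either measure, includes the 1171 bases opposite B3gnt8. If reads there were dropped, the level of Bckdha per base is understated. The ratio of Bckdhb to Bckdha was 0.975 to 1.29 in high salt and 1.19 to 1.58 in normal chow, so the 2 E1 chains overlapped between diets. The ratios reuse the counts behind the fold changes above and were not tested.

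**Figure D3:**
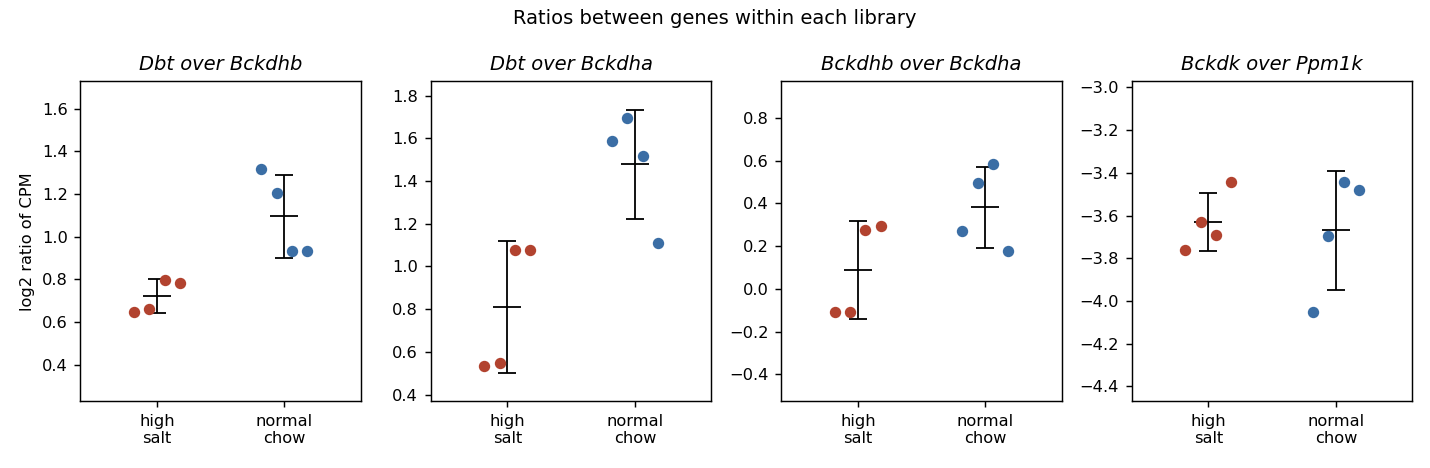
log2 ratio of CPM between pairs of genes within each library (vertical axes span the same range of log2 units and differ in position), with high-salt libraries left of normal-chow libraries and bars for the mean ± SD (n = 4 each). Dbt over Bckdhb is 0.65 to 0.80 in high salt and 0.93 to 1.32 in normal chow, while Bckdk over Ppm1k overlaps between the diets.

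Bckdk encodes the kinase that phosphorylates E1 alpha and shuts the complex down, and Ppm1k encodes the mitochondrial phosphatase that opposes it. Bckdk (chromosome 7, 127904082 to 127910221) was at 9.66, 6.51, 8.45 and 9.65 CPM in high salt 1 to 4, against 6.84, 6.54, 8.98 and 8.12 CPM in normal chow 1 to 4. It rested on 113 to 175 counts per library, the fewest of the 10 genes. High salt 2 was the lowest of all 8 libraries and high salt 1 and 4 the highest, and the log2 fold change of Bckdk was 0.17 (95% confidence interval -0.16 to 0.50, adjusted p = 0.759).

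Ppm1k (chromosome 6, 57506502 to 57535468) was at 131, 80.6, 109 and 105 CPM in high salt 1 to 4, against 113, 84.8, 97.6 and 90.7 CPM in normal chow 1 to 4. High salt held both the highest library and the lowest. The log2 fold change of Ppm1k was 0.14 (95% confidence interval -0.16 to 0.44, adjusted p = 0.781). It was 0.02 without high salt 1, 0.25 without high salt 2, 0.22 without normal chow 1 and 0.08 without normal chow 2, and it was not called in any of these fits. The log2 ratio of Bckdk to Ppm1k, in CPM, was -3.63 ± 0.14 in high salt and -3.67 ± 0.28 in normal chow (SD, n = 4 each), a difference of 0.04 that is smaller than either SD. Per exonic base, Bckdk was at 0.120 to 0.150 of the Ppm1k level in high salt and at 0.0984 to 0.150 in normal chow.

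**Figure D4:**
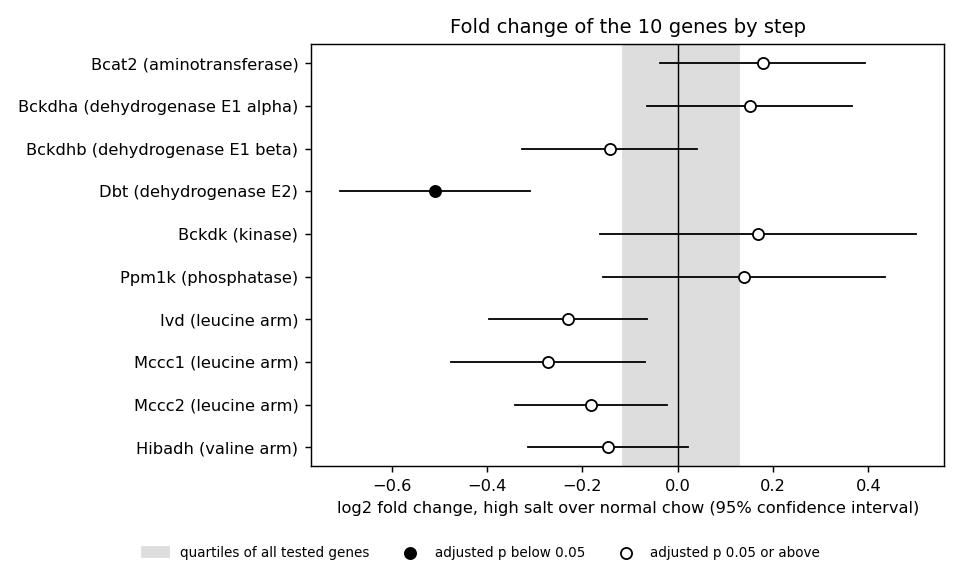
log2 fold change, high salt over normal chow, of the 10 genes in pathway order (points, with 95% confidence intervals), beside the quartiles of all tested genes (grey band, -0.114 to 0.128). Dbt is the 1 filled point, called at an adjusted p below 0.05, with an interval of -0.71 to -0.31, and the intervals of Ivd, Mccc1 and Mccc2 also lie below 0.

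After the dehydrogenase, leucine carbon passes through isovaleryl-CoA dehydrogenase (Ivd) and then through 3-methylcrotonyl-CoA carboxylase, whose alpha and beta chains are Mccc1 and Mccc2. Hibadh, 3-hydroxyisobutyrate dehydrogenase, works in the valine arm. These 4 genes had no overlap between the diets, and the 250 bases before their RefSeq starts are shown to set their promoters side by side. Sequences are from RefSeq (GRCm38.p6), read 5′ to 3′ on the strand of each gene, and capitals mark CCAAT or its reverse complement ATTGG, the core of the box bound by NF-Y. RefSeq windows matched 9 of the 10 genes (11 windows in all), and Dbt had no entry. The windows lie at chr2:118861744-118861993 (plus strand) for Ivd, chr3:36000679-36000928 (minus strand) for Mccc1, chr13:100015640-100015889 (minus strand) for Mccc2 and chr6:52640301-52640550 (minus strand) for Hibadh.
Ivd: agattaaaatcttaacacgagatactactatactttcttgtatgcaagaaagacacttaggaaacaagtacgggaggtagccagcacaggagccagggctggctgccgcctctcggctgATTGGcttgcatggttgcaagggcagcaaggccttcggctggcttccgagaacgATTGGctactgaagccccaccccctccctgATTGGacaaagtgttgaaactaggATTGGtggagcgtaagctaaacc
Mccc1: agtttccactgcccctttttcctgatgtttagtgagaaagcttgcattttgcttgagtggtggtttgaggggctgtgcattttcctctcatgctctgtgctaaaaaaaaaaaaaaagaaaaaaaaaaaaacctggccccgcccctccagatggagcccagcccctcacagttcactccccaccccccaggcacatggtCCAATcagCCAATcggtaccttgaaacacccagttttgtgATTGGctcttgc
Mccc2: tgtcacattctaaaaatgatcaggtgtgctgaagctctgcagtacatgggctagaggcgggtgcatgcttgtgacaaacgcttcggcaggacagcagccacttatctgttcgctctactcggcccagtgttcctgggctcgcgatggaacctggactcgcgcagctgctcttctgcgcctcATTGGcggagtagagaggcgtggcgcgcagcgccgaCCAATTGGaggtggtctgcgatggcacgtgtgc
Hibadh: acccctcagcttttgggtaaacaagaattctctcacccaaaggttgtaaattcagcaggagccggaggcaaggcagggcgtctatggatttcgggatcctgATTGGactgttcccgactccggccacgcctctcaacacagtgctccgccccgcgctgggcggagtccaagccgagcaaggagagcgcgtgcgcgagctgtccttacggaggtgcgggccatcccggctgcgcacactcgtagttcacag
CCAAT was matched 4 times in the window of Ivd, 3 times in that of Mccc1, 3 times in that of Mccc2 and 1 time in that of Hibadh, on either strand. By the gene coordinates given below, Ivd starts at 118861954 and Hibadh, on the minus strand, starts at 52640389. Both positions fall inside the RefSeq windows, so the last bases of these windows lie within the genes. So does the Ivd match that lies 23 bases before the RefSeq start. In Mccc2, 2 of the 3 matches overlap each other in a palindrome. Among 32851 windows of the same length before RefSeq starts, 33.8% hold at least 1 match, 2.79% at least 3 and 0.840% at least 4. Of the other members, Bckdhb and Ppm1k each had 2 matches in 1 window, Bckdk had 1, and Bcat2 and Bckdha had 0. Other motifs were searched the same way. The GC box GGGCGG was in 4 of the 11 windows, and in 32.7% of all windows. The E-box CACGTG was in 1 of the 11 (Mccc2), and in 6.02% of all. AAGGTCA, a core site of estrogen-related receptors, was in 0 of the 11, and in 4.08% of all. The ETS core CCGGAAG was in 0 of the 11, and in 6.91% of all. The motifs were picked with the results known, and a match says only that the letters are there.

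Ivd (chromosome 2, 118861954 to 118882909) was at 197, 206, 221 and 220.2 CPM in high salt 1 to 4, against 258, 243, 240.0 and 249.9 CPM in normal chow 1 to 4. The groups lay apart, with high salt 3 at 221 CPM and normal chow 3 at 240.0 CPM. The log2 fold change of Ivd was -0.23 ± 0.08 (SE, 95% confidence interval -0.40 to -0.06), or 0.852 times the normal-chow level. It was not called by edgeR (adjusted p = 0.275), while DESeq2 called it (adjusted p = 0.0432, the same value as in the authors' deposited table). DESeq2 thus called 2 of the 10 genes lower and 0 higher, against 0.880% lower and 0.534% higher of all genes it tested.

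Mccc1, the biotin-carrying alpha chain (chromosome 3, 35959312 to 36000678), was at 41.7, 33.4, 41.9 and 42.3 CPM in high salt 1 to 4, against 46.6, 44.7, 54.0 and 47.1 CPM in normal chow 1 to 4. The groups lay close, high salt 4 at 42.3 CPM and normal chow 2 at 44.7 CPM, and high salt 2 stood below the rest. The log2 fold change of Mccc1 was -0.27 ± 0.09 (SE, adjusted p = 0.301), and -0.20 (adjusted p = 0.531) without high salt 2. Of its 10952 exonic bases 613 lie opposite exons of other annotated transcripts. Of these, Gm15952 and Mccc1os had at most 10 counts in any library. B230207O21Rik, which covers 321 of the 613 bases, was not found by symbol in the count table, so its level could not be checked.

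Mccc2, the beta chain (chromosome 13, 99948530 to 100015639), was at 74.9, 72.0, 74.8 and 81.3 CPM in high salt 1 to 4, against 86.3, 82.6, 82.5 and 92.4 CPM in normal chow 1 to 4. High salt 4 came within about 1 CPM of the lowest normal-chow libraries. Mccc2 had a log2 fold change of -0.18 ± 0.07 (SE, 95% confidence interval -0.34 to -0.02, adjusted p = 0.385).

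Hibadh (chromosome 6, 52546228 to 52640389) was the gene of the 10 with the most counts, 5120 to 6487 per library. It was at 303, 308, 318 and 322 CPM in high salt 1 to 4, against 332, 326, 369 and 358 CPM in normal chow 1 to 4. High salt 4 and normal chow 2 almost met. Hibadh had a log2 fold change of -0.15 ± 0.08 (SE, 95% confidence interval -0.31 to 0.02, adjusted p = 0.527).

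The high-salt libraries differed among themselves in a similar way in several genes. High salt 1 and 2 had the lowest Dbt, Bckdhb, Ivd and Hibadh values of all 8 libraries and the highest Bckdha values. For Mccc1, Bckdk and Ppm1k high salt 2 was the lowest of all 8. High salt 2 was also the library with the most B and plasma cell marker RNA, given above, and the part of that RNA in these values was not tested. Without high salt 2 and normal chow 1 together, a choice made after seeing the data, Dbt had a log2 fold change of -0.45 (adjusted p = 0.0698) and 0 of the 10 genes were called.

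Levels of different genes were set side by side per kilobase of exonic sequence (RPKM). In high-salt livers Ivd was the highest, at 38.4 ± 2.11 RPKM (mean ± SD, n = 4), and Bckdhb followed at 34.5 ± 2.11. Bckdha (31.0 ± 3.16), Dbt (30.8 ± 3.50) and Hibadh (30.7 ± 0.846) came next, before Mccc2 (27.0 ± 1.40) and Ppm1k (17.7 ± 3.43). Bcat2 (4.65 ± 0.380), Mccc1 (3.64 ± 0.389) and Bckdk (2.32 ± 0.402) were the lowest. In normal-chow livers Ivd was at 45.0 ± 1.47 RPKM, Dbt at 43.9 ± 2.77, Bckdhb at 38.2 ± 3.85 and Hibadh at 34.0 ± 2.05. Mccc2 (30.7 ± 1.66), Bckdha (27.9 ± 3.40) and Ppm1k (16.0 ± 2.04) followed, and Mccc1 (4.39 ± 0.370), Bcat2 (4.11 ± 0.331) and Bckdk (2.06 ± 0.308) were again the lowest. Dbt stood next to Ivd in normal chow, less than 1 SD below it, and between Bckdha and Hibadh in high salt, where these 3 genes lay within 1 SD of each other. Mccc1 and Bcat2 in normal chow were also within 1 SD of each other.

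The order depends on the length used, and for Bckdha also on how reads on the 1171 bases opposite B3gnt8 were counted. The values above use all exonic bases of a gene, which for Hibadh are 10179 bases, against 1825 in its principal transcript, and for Mccc1 10952 bases, against 2455. With principal transcripts Hibadh was the highest of the 10 (171 RPKM in high salt and 189.7 RPKM in normal chow) and Mccc1 was at 16.2 RPKM in high salt and 19.6 RPKM in normal chow. Mccc2 then stood above Dbt and Bckdha in high salt, at 35.7 RPKM against 31.3 for Dbt and 31.0 for Bckdha. In normal chow Bckdhb, at 46.8 RPKM, then stood between Ivd, at 67.6 RPKM, and Dbt, at 44.5 RPKM. Bckdk, the kinase gene, was the lowest of the 10 with either length, at 2.52 RPKM in high salt and 2.24 RPKM in normal chow with the principal transcript.

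Of 27 other genes of the pathway, 26 were tested and edgeR called 0, DESeq2 called 0 and limma-voom called 0. The shares of all tested genes called were 0.150% lower and 0.150% higher by edgeR, 0.880% lower and 0.534% higher by DESeq2, and 0.0600% lower and 0.0525% higher by limma-voom. At an unadjusted p below 0.05 in edgeR, 5 of the 26 were lower and 2 higher, against 5.60% lower and 5.33% higher of all tested genes. The median log2 fold change of the 26 was -0.107, with 19 below 0, against a median of 0.00596 and 48.7% below 0 over all tested genes. With total-count scaling, which moved the median of all tested genes to 0.0663, their median was -0.048, with 15 below 0. This list, too, was chosen with earlier results of these data known, so the shares do not test it as a group.

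The 3 of smallest p were Mmadhc, Klf15 and Abat. Mmadhc, which handles cobalamin for the methylmalonyl-CoA mutase step, was at 61.9, 53.8, 59.3 and 47.6 CPM in high salt 1 to 4, against 44.9, 43.6, 48.4 and 46.6 CPM in normal chow 1 to 4 (log2 fold change 0.28 ± 0.09, SE, adjusted p = 0.244). Klf15, a transcription factor known to act on genes of amino acid breakdown, was at 242, 273, 237 and 257 CPM in high salt 1 to 4, against 303, 292, 283 and 322 CPM in normal chow 1 to 4 (-0.25 ± 0.08, adjusted p = 0.256). Abat, 4-aminobutyrate aminotransferase, was at 359, 286, 396 and 404 CPM in high salt 1 to 4, against 449, 467, 441 and 446 CPM in normal chow 1 to 4 (-0.32 ± 0.10, adjusted p = 0.256). Klf15 and Abat did not overlap between the diets, and Mmadhc did through high salt 4. Of the 26 tested genes, 4 lay lower in every high-salt library than in any normal-chow library, Klf15 and Abat among them. In 0 of the 26 did they all lie higher. The shares over all tested genes were 3.37% lower and 2.98% higher.

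Values lay on both sides of 0 in every step with more than 1 tested gene. The transporters of branched-chain amino acids held 4 of 5 values below 0, with Slc25a44, a mitochondrial carrier, at -0.24 ± 0.11 (adjusted p = 0.444). Of the 3 other genes listed under leucine 2 were below 0. The remaining one, Acat1, is a thiolase that also acts in the isoleucine arm and in ketone body synthesis. Acat1 was at 0.36 ± 0.12 (adjusted p = 0.290), and at 0.20 (adjusted p = 0.575) without high salt 1. Acat1 stood at 770.4 CPM in high salt 1, against 493 to 570.2 CPM in the other high-salt libraries and 434 to 502 CPM in normal chow. Of the 4 genes listed under isoleucine, which leave out Acat1, 3 were below 0 (median -0.102). Of the 4 other valine genes 3 were below 0 (median -0.107). In the propionate arm 5 of 8 were below 0, with Pcca, the alpha chain of propionyl-CoA carboxylase, at -0.27 ± 0.09 (adjusted p = 0.287) and Pccb, its beta chain, at 0.02 ± 0.08. The genes named in this paragraph were picked after their values were seen.

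**Figure D5:**
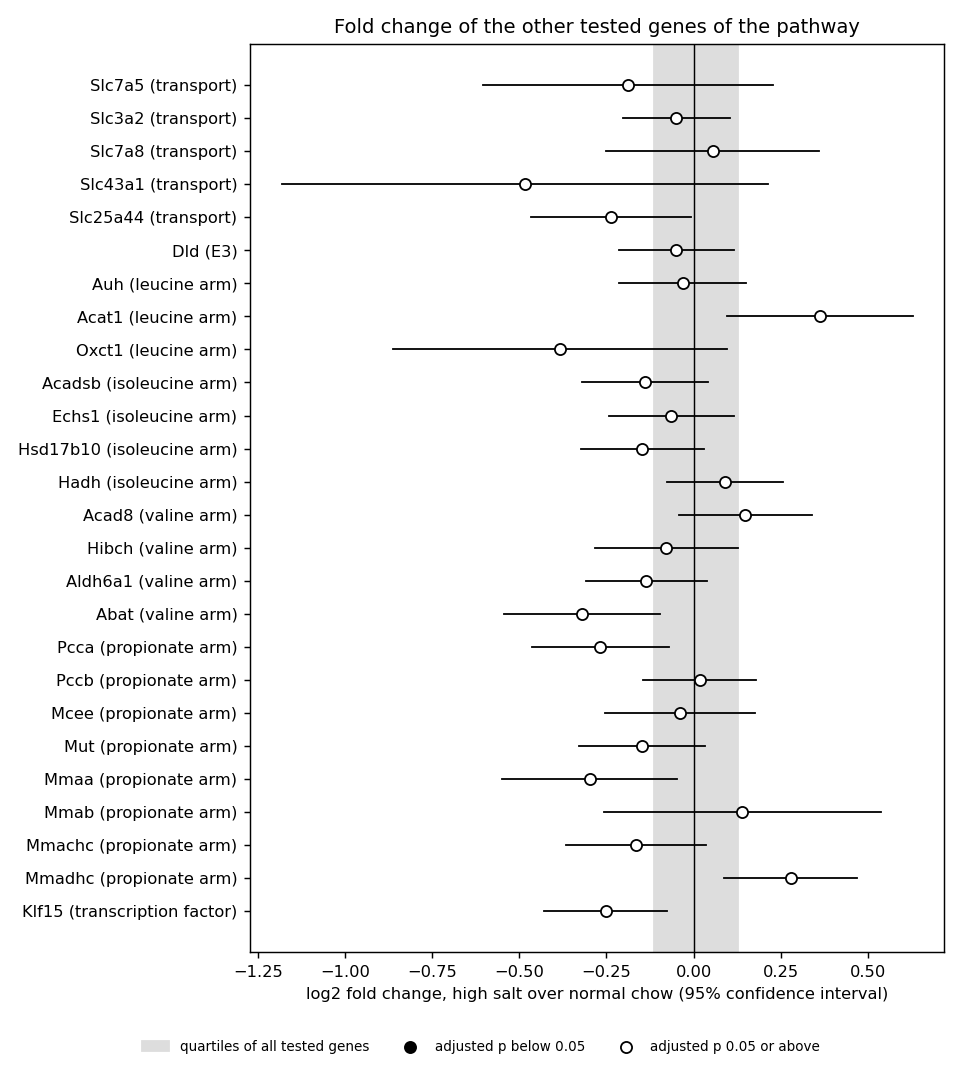
log2 fold change, high salt over normal chow, of the 26 other tested genes of branched-chain amino acid breakdown by step (points, with 95% confidence intervals) beside the quartiles of all tested genes (grey band). All points are open (adjusted p of 0.05 or above), and they range from -0.48 for Slc43a1 to 0.36 for Acat1.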

How the data were processed

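Per the labels' protocols, liver RNA was taken with Trizol and sequenced from Illumina TruSeq RNA libraries. The authors deposited 1 table of raw read counts per gene and library. Tools listed in the submitters' processing notes, without roles, are HTSeq 0.6.0, HISAT2 2.1.0 and StringTie 1.3.2d, on build GRCm38. The strand setting of the counting is not stated. The authors' deposited table also gives, per the file headers, a fold change as a ratio and in log2 and 2 p-values, raw and adjusted. These were used for comparison only. There was 1 emptied line, which was not analysed here.

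The counts were fitted with edgeR 4.0.16 in R 4.3.3 (TMM factors of 0.966 to 1.05, filterByExpr, robust quasi-likelihood test of the diet), two-sided, with Benjamini-Hochberg adjustment over the 13341 genes that passed. The common biological coefficient of variation was 0.147. DESeq2 1.42.0, limma-voom (limma 3.58.1), other scalings and filters, a replicate block and fits without each library were alternatives. On simulated counts of 13341 genes for this comparison, the share of changed genes that edgeR found was 55.2% at 1.5-fold and 89.6% at 2-fold, with 8.43% false calls. Pairs of libraries within a group differed by more than sampling noise (chi-square per degree of freedom 9.69 to 36.7), more than repeat sequencing of 1 library would give. This does not show that they stem from different animals. Each library was counted as 1 sample.

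RPKM used the union of exons in GENCODE M21, or the longest principal transcript. The 10 genes and the pathway list were chosen with earlier results of these data known. A gene of the pathway list is not reported here and is left out of the counts of that list. All 10 genes are named, and of the pathway list the genes called or else the 3 of smallest p, with further genes marked as picked after their values were seen.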

Additional observations from a re-analysis of the deposited data

Results flagged for a closer look

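A single library stood far from the other 3 of its group, by Dixon's ratio of its gap to the group's range, in 4 of 72 sets of 4 values. About 1 in 20 such sets would do so by chance. Mccc1 was at 33.4 CPM in high salt 2, against 41.7 to 42.3 CPM in the other high-salt libraries. Acad8, isobutyryl-CoA dehydrogenase of the valine arm, was at 72.8 CPM in high salt 1, against 57.0 to 59.4 CPM in the other high-salt libraries, and at 51.2 CPM in normal chow 2, where the rest of that group had 57.3 to 57.9 CPM. Slc7a8, an amino acid transporter, was at 4.81 CPM in high salt 3, against 6.58 to 6.89 CPM in the other high-salt libraries.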

How the results depend on the processing

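No fold change of the 10 genes turned its sign under any of the 17 alternatives run, and Dbt and Ivd were the 2 whose call changed with a setting. The edgeR fit called 20 genes higher and 20 lower over all genes, of which 1 was Dbt. DESeq2 called 82 higher and 135 lower and 2 of the 10 genes lower (Dbt and Ivd). Without a filter 89 were higher and 131 lower. limma-voom called 7 higher, 8 lower and 0 of the 10 genes. Total-count scaling called 21 higher, 11 lower (65.6% of calls higher, against 50% in the edgeR fit) and 0 of the 10, and upper-quartile factors also called 0 of the 10. Leaving out 1 library gave 2 to 25 genes higher, 1 to 32 lower and 0 to 1 of the 10 genes lower, with 2 higher and 2 lower without normal chow 2 and 4 higher and 1 lower without high salt 1. Without normal chow 1 and high salt 2 together, chosen after seeing the data, 26 genes were higher, 43 lower and 0 of the 10 genes called. The causes were not tested.

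The groups share replicate numbers in their titles. With the replicate number as a block, 8 genes were called higher, 3 lower and 0 of the 10 genes lower, and Dbt had -0.51 (adjusted p = 0.132). Same-numbered libraries correlated at -0.149, -0.195, 0.0865 and 0.00515 in their deviations from the group means, so the numbers were not taken to pair the libraries. The Dbt log2 fold change was -0.45 with total counts, -0.50 with upper-quartile factors, and -0.51 with limma-voom.

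Bckdk had the fewest counts of the 10 genes, 113 to 175 per library, and a 95% confidence interval of -0.16 to 0.50; Ppm1k, with 1466 to 2209 counts, had -0.16 to 0.44. With 1 library left out, the log2 fold change was 0.12 to 0.22 for Bcat2, 0.09 to 0.23 for Bckdha, -0.19 to -0.08 for Bckdhb and 0.10 to 0.27 for Bckdk, none of them called. The simulated recovery of 55.2% at 1.5-fold covers a larger change than that of any of the 10 genes.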

Other observations

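Mccc1 and Mccc2 encode the 2 chains of 1 carboxylase, and their balance within a library overlapped between the diets. The log2 ratio of Mccc2 to Mccc1, in CPM, was 0.93 ± 0.12 in high salt and 0.84 ± 0.16 in normal chow (SD, n = 4 each), a difference smaller than either SD, with the highest value, 1.11, in high salt 2. The log2 ratio of Bckdk to its substrate gene Bckdha was -2.79 ± 0.36 in high salt and -2.80 ± 0.18 in normal chow. Mitochondrially encoded transcripts took 8.06 ± 0.655% of counts in high salt and 8.39 ± 0.171% in normal chow (exact permutation p = 0.400, two-sided, n = 4 each).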
